A study of Mus musculus with 5 samples.

Results

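The mitochondrial ribosomal protein genes, named Mrpl for the large and Mrps for the small subunit, were examined in invariant natural killer T (iNKT) cells of the mouse liver. Members were the protein-coding rows whose symbol begins with Mrpl or Mrps followed by a digit, which were 78 of 55364 gene rows, 49 Mrpl and 29 Mrps. iNKT cells are T lymphocytes whose semi-invariant receptor recognises lipids on CD1d, and they had been sorted with a PBS57-loaded CD1d tetramer and an antibody to TCRb. All mice were wild-type (WT) male C57BL/6, per the labels, and were killed at 38 to 42 weeks. The 2 healthy mice had received PBS, and the 3 HCC mice had received 1 intraperitoneal injection of diethylnitrosamine (DEN), a liver carcinogen, of 25 mg/kg at 15 days of age and had hepatocellular carcinoma. The labels name the HCC source as carcinoma of the liver and do not separate tumour from the tissue around it. Each mouse gave 1 library of 3′ mRNA sequencing (QuantSeq, for Ion Torrent), although the names of 2 of the deposited tables, those for HCC 2 and for HCC 3, carry the same number.

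Mitochondrial ribosomes translate the few proteins encoded by mitochondrial DNA, all of them subunits of the respiratory chain and the ATP synthase. Their RNAs are made in the mitochondrion, whereas all of their proteins are encoded in the nucleus, translated in the cytosol and imported. Many of these proteins have a counterpart in the bacterial ribosome, and others are found in mitochondria only. T cells are known to enlarge their mitochondria and mitochondrial translation when they are activated.

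The values in the tables are whole numbers, but their spacing shows that they were not reads as counted. In healthy 1, 38 of the whole numbers from 1 to 60 were held by no gene, and in HCC 3 17 of them were, whereas 0 were missing in the other libraries, which showed regular peaks instead. Such gaps and peaks arise where whole reads are divided by a number for each library and rounded. From the spacing, 1 read was worth 2.65 and 0.759 in healthy 1 and 2 and 0.706, 0.440 and 1.39 in HCC 1 to 3. The estimated depth was therefore 837862, 2400505, 2601250, 3903355 and 1352219 reads, in the same order, so healthy 1 was the shallowest library. Levels below are CPM, the deposited value per 1000000 of its table's total. The most that 0 reads allow at 95% confidence is 3 reads, which correspond to 3.58, 1.25, 1.15, 0.769 and 2.22 CPM. In HCC 2, 1 read is worth 0.440 and rounds to 0, so the limit for a value of 0 is higher there.

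**Figure D1:**
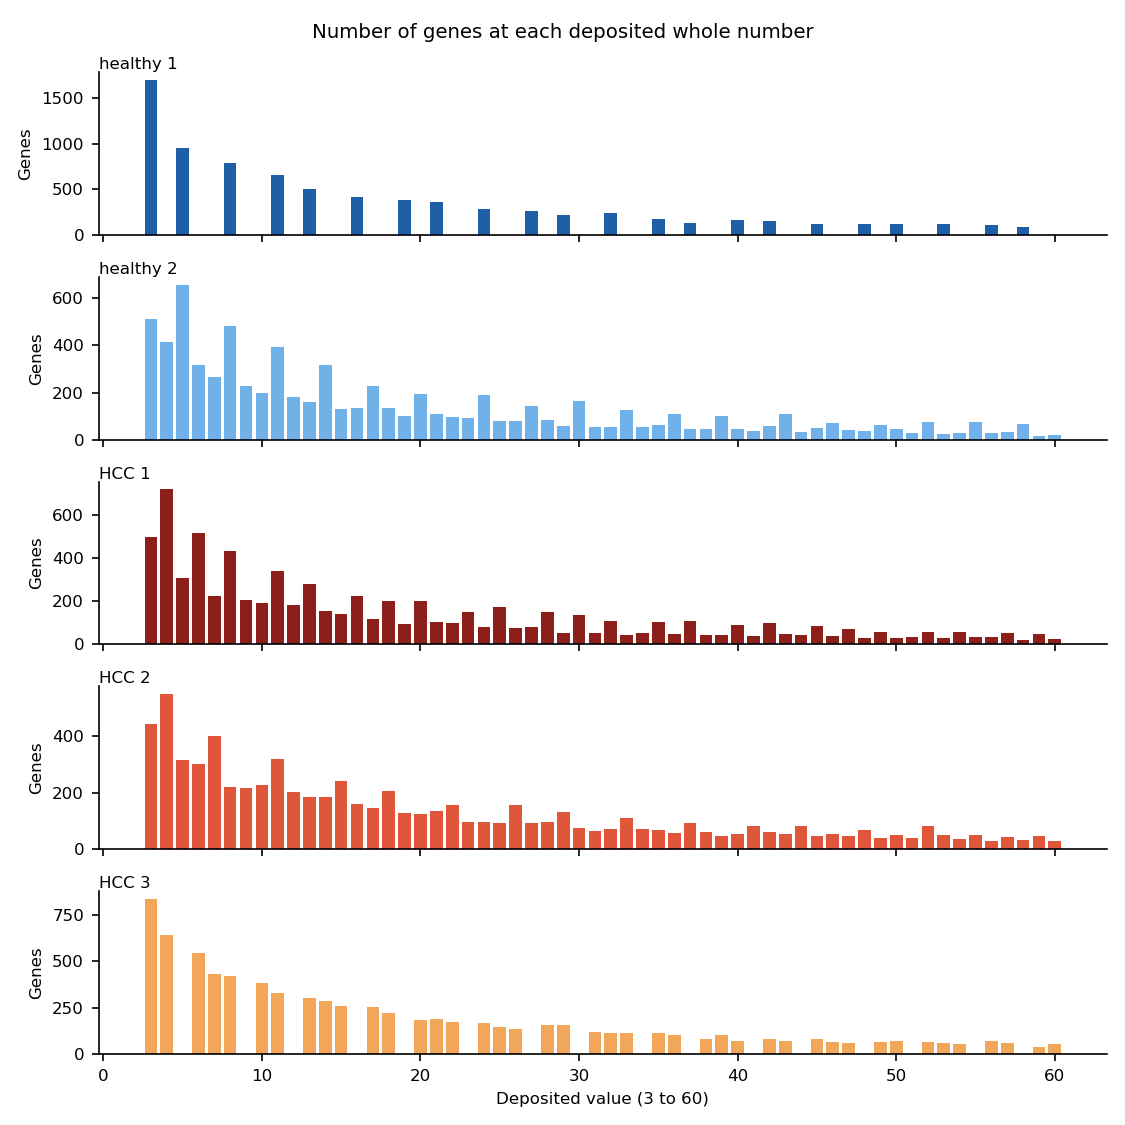
Number of genes (vertical axis) that hold each deposited whole number from 3 to 60 (horizontal axis), 1 panel per library. Empty positions in healthy 1 and HCC 3 and regular peaks in healthy 2, HCC 1 and HCC 2 mark the spacing of 1 read, which was 2.65 in healthy 1 and 0.440 in HCC 2.

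T cell genes were present in every library, with Cd3e at 178 to 283 CPM and Trac at 488 to 803 CPM, and the 10 T and iNKT cell markers together at 4530 to 5877 CPM. Zbtb16, the transcription factor that defines iNKT cells, was at 1.65 CPM or less in each library. Klrb1c, which encodes NK1.1, ranged from 5.49 CPM, in healthy 2, to 465 CPM, so the healthy libraries differed in this marker or in its detection. Hepatocyte and erythroid marker sums did not overlap between the groups and were the higher in HCC mice. The 10 hepatocyte markers summed to 21.1 and 51.6 CPM in the healthy, against 56.6, 269 and 658 CPM in the HCC libraries, with Cps1 at 0 in 4 of the 5 libraries. The 5 erythroid markers, mainly globins, summed to 2975 and 2787 CPM in the healthy, against 7390, 17083 and 15385 CPM in the HCC libraries. Of these, 9 of 9 and 5 of 5 tested markers had fitted changes above 0, with 0 called. Markers of B cells and macrophages summed to at most 25.6 and 21.6 CPM, and of the 4 neutrophil markers Mmp9 was at 311 to 587 CPM and the other 3 at most at 7.56 CPM. The part of other cells in the results on the mitochondrial ribosomal genes was not tested. In sorted populations, fewer cells of a type and less RNA per cell cannot be told apart.

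Together the 78 genes made up a small share of each table's total. Of that total, protein-coding rows held 53.5 to 60.7% and pseudogene rows 31.7 to 38.5%, so CPM is not a share of mRNA alone. Their levels summed to 2089 CPM in healthy 1, 2573 CPM in healthy 2 and 2380, 2240 and 2166 CPM in HCC 1 to 3. Both extremes were healthy libraries, so the groups overlapped, with 2331 ± 342 CPM (SD, n = 2) in healthy and 2262 ± 109 CPM (SD, n = 3) in HCC libraries and a ratio of 0.970. The spread between the healthy libraries was larger than the difference between the groups, and the log2 ratio of the sums was -0.043 with all libraries, -0.19 without healthy 1 and 0.11 without healthy 2. The sums rested on 1749, 6170, 6192, 8745 and 2926 estimated reads. Because 3′ sequencing reads the end of each transcript, levels of different genes are set side by side without division by length.

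No member passed the test. With limma, fitted across all genes on log2 of the deposited value plus 3, 0 of the 75 members tested were called at a Benjamini-Hochberg adjusted p under 0.05, and neither were any of the 8647 genes tested (0%). At an unadjusted p under 0.05 there were 3 members, or 4%, beside 3.96% of all genes tested. All 3 had lower fitted levels in HCC libraries, a direction held by 0.856% of all genes at that threshold, while 3.1% had higher levels, as 0 members did. In a fit blocked by replicate number, 0 members and 0.0231% of all genes were called. The fitted log2 fold change, HCC over healthy, had a median of -0.22 over the members and 0.05 over all genes tested. It was below 0 in 46 of 75 members (61.3%), beside 47.2% of all genes, and above 0 in 29 (38.7%), beside 52.8%. For scale, the 95% interval of a member's log2 fold change reached 1.24 to either side at the median. When only library totals were used for scaling, the median over all genes shifted by 0.13, to 0.18, and that over members to -0.073.

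**Figure D2:**
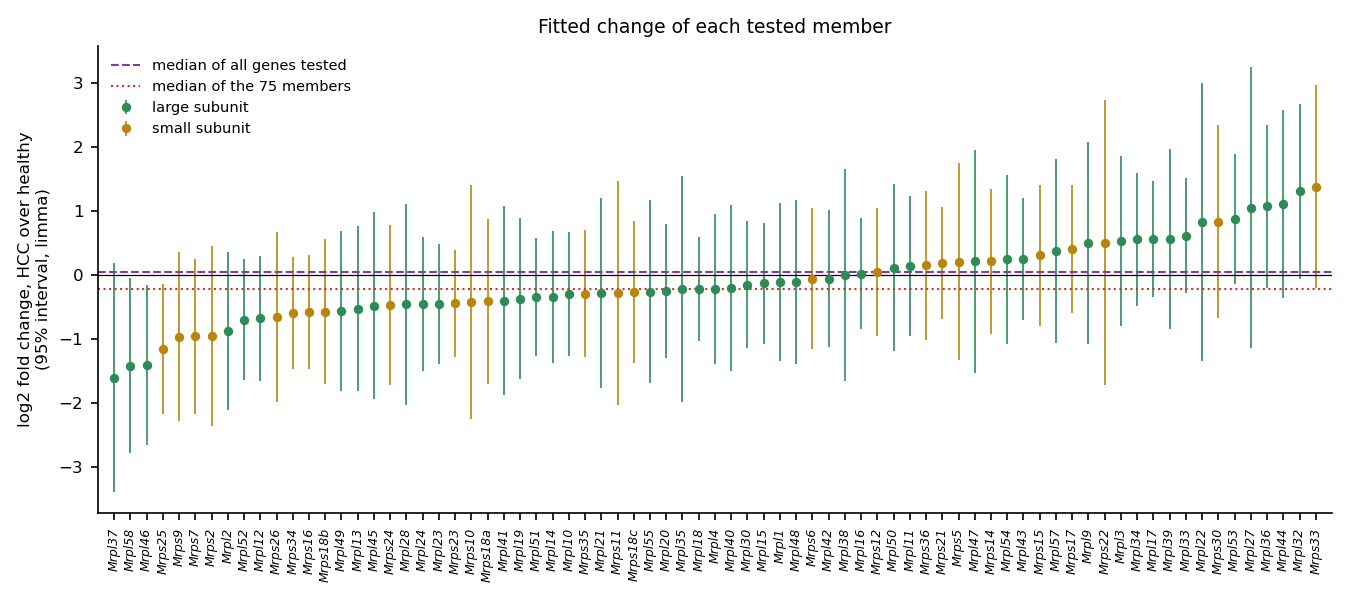
Fitted log2 fold change of HCC over healthy libraries (vertical axis) with its 95% interval from limma for the 75 tested members in order of the estimate, green for the large and ochre for the small subunit. The intervals of 3 members, Mrps25, Mrpl46 and Mrpl58, lie below 0, and the member median of -0.22 lies under the median of 0.05 over all genes tested.

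Ranked by their mean over the 5 libraries, member levels ran from 119 CPM for Mrpl33 to 1.55 CPM for Mrps27, with 13 genes at 50 CPM or more, 54 between 10 and 50 CPM and 11 below 10 CPM. The median coefficient of variation over the 5 libraries, both groups pooled, was 42.1%, where the estimated reads alone would give 16.4%. Healthy 1 held the lowest level for 30 members and the highest for 14, and healthy 2 the highest for 27 and the lowest for 7. Across the 78 genes, the Pearson r of log2 levels between healthy 1 and the other libraries was 0.54 to 0.76, and 0.74 to 0.80 among the other 4, a description over genes that share libraries and depth.

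**Figure D3:**
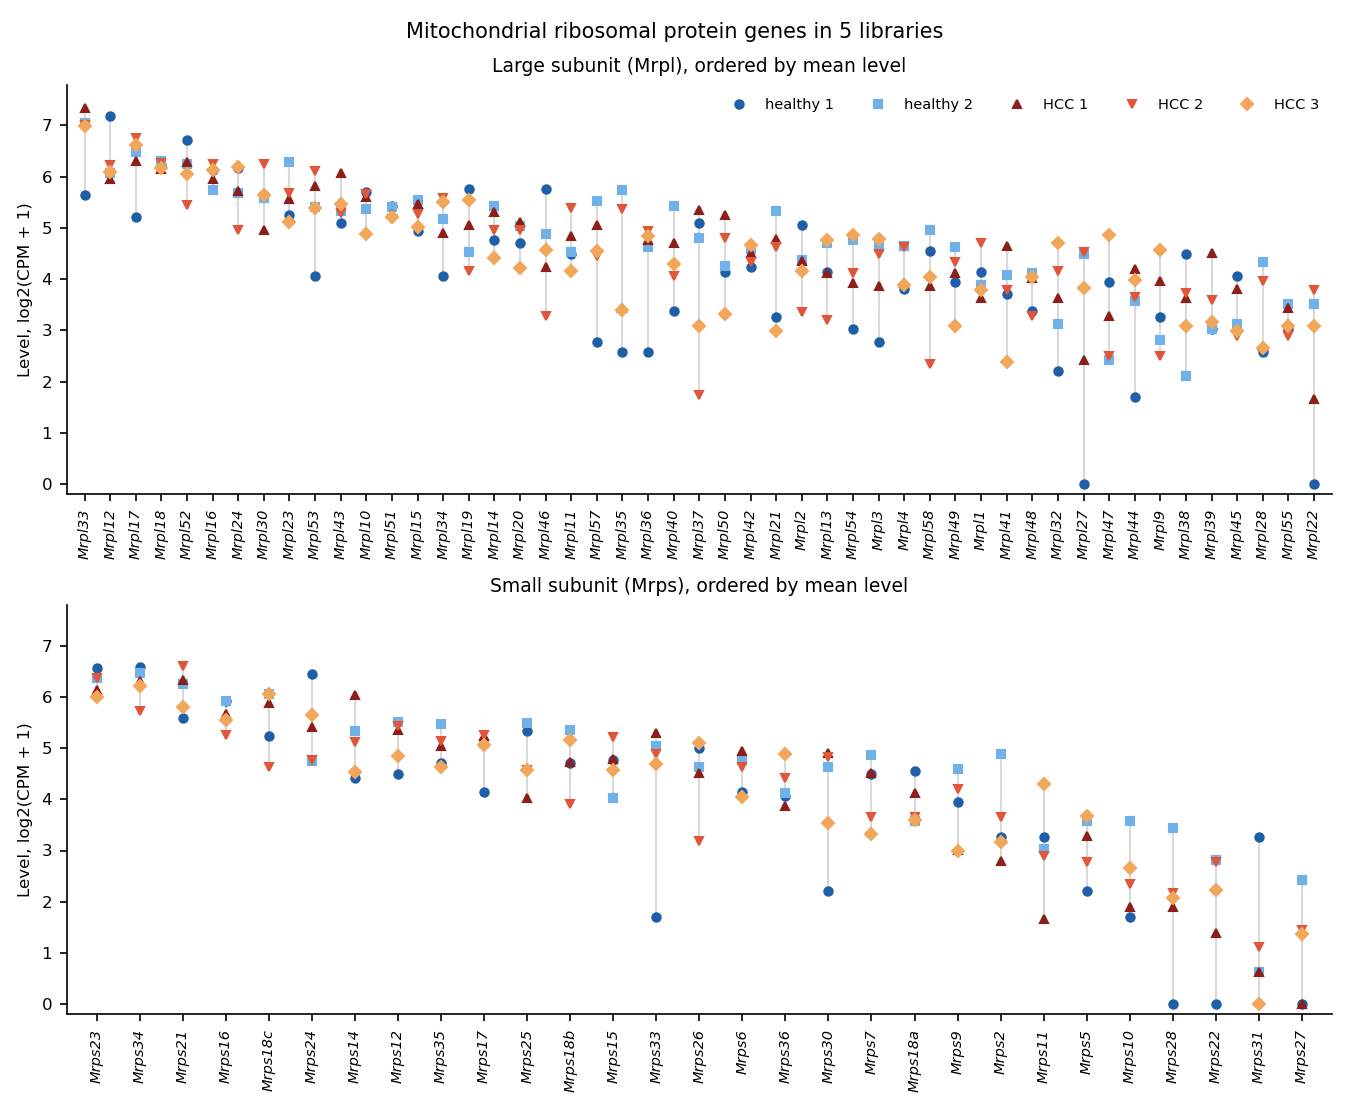
Level of each of the 78 members in the 5 libraries as log2(CPM + 1) (vertical axis), with the 49 large-subunit genes above and the 29 small-subunit genes below, ordered by mean level. Blue symbols are healthy and red to orange symbols HCC libraries. Healthy 1 (dark blue circles) is the lowest point for 30 genes.

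The large subunit carries the peptidyl transferase centre and the exit tunnel, through which the new chain leaves toward the inner membrane. Its most abundant transcript was Mrpl33 (chr5:31596935-31664384, GRCm38), a small protein with a bacterial counterpart, at 49.0 and 132 CPM in the healthy, against 161, 128 and 126 CPM in the HCC libraries. Healthy 1 alone was low, so the log2 fold change of 0.61 (SE 0.41, adjusted p = 0.946, limma) became 0.05 without it. Mrpl17 (chr7:105803206-105811099), a protein near the exit tunnel, had the same shape, with 36.0 and 88.9 CPM against 78.4, 108 and 97.1 CPM. Mrpl12 (chr11:120484613-120489065), which forms the flexible stalk that recruits translation factors and also binds the mitochondrial RNA polymerase, had the opposite one. It was at 144 CPM in healthy 1 and at 65.9 CPM in healthy 2, beside 60.9, 74.5 and 67.4 CPM in the HCC libraries. Mrpl12 thus was 6.91% of the summed member level in healthy 1 and 2.56 to 3.33% in the others. Its log2 fold change of -0.67 (SE 0.45) was 0.025 without healthy 1.

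Some members carried promoter motifs that the rule for choosing them did not use, although most did not. The NRF1 consensus or the ETS motif was in 30 of 75 member windows (40%), beside 13.4% of the windows of protein-coding genes. The promoters printed here were picked because they hold matches, and those of Mrpl33, Mrpl12, Mrps25 and Mrpl46, for example, held none to NRF1, ETS or YY1. The 250 bases before the RefSeq start (GRCm38.p6, strand of the gene) are shown for the abundant genes Mrpl17 (chr7:105811088-105811337, minus strand) and Mrpl52 (chr14:54426659-54426908, plus strand). They are also shown for Mrpl58 (chr11:115403502-115403751, plus strand), the member with the lowest fold change among those at an unadjusted p under 0.05. Capitals mark matches, on either strand, to the NRF1 consensus, the ETS motif CCGGAAG or the YY1 motif AAGATGG. NRF1 and the ETS factor GABP are known activators of nuclear genes for mitochondrial proteins.
Mrpl17: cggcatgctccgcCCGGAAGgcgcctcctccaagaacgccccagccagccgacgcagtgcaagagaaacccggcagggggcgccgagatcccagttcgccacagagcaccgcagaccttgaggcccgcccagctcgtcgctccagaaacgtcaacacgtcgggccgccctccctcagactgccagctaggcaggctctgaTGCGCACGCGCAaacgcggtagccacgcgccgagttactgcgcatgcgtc
Mrpl52: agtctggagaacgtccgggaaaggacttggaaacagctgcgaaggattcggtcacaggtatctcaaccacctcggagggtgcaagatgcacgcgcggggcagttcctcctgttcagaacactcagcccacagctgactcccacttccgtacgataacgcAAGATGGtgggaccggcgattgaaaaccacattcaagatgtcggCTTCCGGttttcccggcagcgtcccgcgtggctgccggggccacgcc
Mrpl58: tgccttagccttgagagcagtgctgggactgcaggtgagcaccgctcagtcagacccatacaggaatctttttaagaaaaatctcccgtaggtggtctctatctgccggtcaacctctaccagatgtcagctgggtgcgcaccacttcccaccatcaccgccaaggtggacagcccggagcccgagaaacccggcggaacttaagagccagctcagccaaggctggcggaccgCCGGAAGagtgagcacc
In Mrpl17 the NRF1 match began 50 bases before the start and an ETS match 237 bases before it. In Mrpl52 and Mrpl58 the ETS match began 47 and 17 bases before the start.

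Windows of 300 bases, from 250 before to 50 after the start, were present in RefSeq's table for 69 of the 78 members (75 windows). ETS matches were in 26 windows (34.7%), beside 11.9% of the 20139 windows of protein-coding genes. The NRF1 consensus was in 5 (6.67%), beside 1.87%, and its core with 1 base left free in 13 (17.3%), beside 6.60%. YY1 matches were in 13 (17.3%), beside 6.30%, and a longer YY1 form in 5 (6.67%), beside 0.938%. TATAAA was in 5 (6.67%), beside 12.2%, and CCAAT in 30 (40.0%), beside 37.8%. Both strands were searched for all 7 patterns, of which the NRF1 consensus lies within its core's matches and the longer YY1 form within those of AAGATGG. A match describes letters and not binding.

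Among the other abundant large-subunit genes, Mrpl18 (chr17:12911349-12916345), an rRNA-binding protein of the central protuberance, was the most even, at 74.2 and 78.5 CPM in healthy mice, against 70.2, 76.2 and 71.1 CPM in HCC mice. In CPM its coefficient of variation of 4.67% was below the 8.99% that counting alone would give. On the deposited scale, used in the fits, Mrpl18 was at 165 and 143 against 129, 131 and 134. There every HCC library lay below both healthy ones. Mrpl52, found in mitochondria and not in bacteria, was at 104 and 75.2 CPM against 76.7, 42.5 and 65.3 CPM, and HCC 1 lay between the healthy libraries (log2 fold change -0.70, SE 0.44, adjusted p = 0.946, limma). This value was -0.33 without healthy 1, -1.07 without healthy 2 and -0.43 without HCC 2. Mrpl16, which lies close to the peptidyl transferase centre, was at 69.2 and 52.7 CPM against 60.9, 75.1 and 69.0 CPM, a log2 fold change of 0.02. For Mrpl24, whose bacterial counterpart starts the assembly of the large subunit, healthy 1 and HCC 3 were alike at 71.5 and 71.7 CPM, and HCC 2 was lowest at 30.3 CPM. Mrpl30 was at 49.0 and 47.2 CPM in healthy libraries, between 29.9 CPM in HCC 1 and 75.1 CPM in HCC 2. In these 5 genes the healthy and HCC ranges overlapped in CPM, while those of Mrpl18 did not on the deposited scale.

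The small subunit holds the decoding centre. Mrps23 and Mrps34, both proteins specific to mitochondrial ribosomes, led it at similar levels. Mrps23 (chr11:88204388-88211507) was at 93.1 and 81.2 CPM in the healthy libraries, against 69.1, 81.5 and 62.6 CPM in the HCC libraries. In CPM HCC 2 was level with the lower healthy library. On the deposited scale Mrps23 was at 207 and 148 against 127, 140 and 118, with every HCC library below both healthy ones. Mrps34 (chr17:24895116-24897502) was at 94.4 and 87.8 CPM against 77.8, 51.8 and 72.7 CPM, with every HCC library below both healthy ones (log2 fold change -0.59, SE 0.40, adjusted p = 0.946, limma, and -0.38 without HCC 2). The end of Mrps34 overlaps Nme3 on the same strand and shares 37.9% of its 31-base words with it, so reads of the neighbours may not be separable. Mrps16, a protein with a bacterial counterpart, was at 59.8 CPM in both healthy libraries and at 50.1, 37.2 and 45.6 CPM in HCC 1, 2 and 3 (-0.58, SE 0.41). Its groups did not overlap either.

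Mrps21, with a bacterial counterpart, was lowest in healthy 1 at 46.8 CPM and highest in HCC 2 at 96.6 CPM. Healthy 2, HCC 1 and HCC 3 lay between, at 74.6, 79.4 and 54.7 CPM. Mrps24 was highest in healthy 1 at 85.9 CPM and at 25.8, 41.4, 26.2 and 48.8 CPM in healthy 2 and HCC 1, 2 and 3. Its log2 fold change was -0.47 (SE 0.57) with all libraries and 0.51 without healthy 1, so that 1 library set its direction. Mrps12, the protein at the decoding centre, which was chosen here after its values were seen, was at 21.6 and 44.5 CPM against 39.7, 41.9 and 27.6 CPM.

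Since library scaling cancels in a ratio within a library, the balance of the subunits could be set side by side without it. Large-subunit genes summed to 1338, 1655, 1562, 1514 and 1437 CPM and small-subunit genes to 750, 918, 818, 726 and 729 CPM in healthy 1, healthy 2, HCC 1, HCC 2 and HCC 3. The ratio of large to small was 1.78 and 1.80 in the healthy and 1.91, 2.08 and 1.97 in the HCC libraries, or 1.79 ± 0.0138 (SD, n = 2) and 1.99 ± 0.0885 (SD, n = 3). Every HCC library thus lay above both healthy ones, by 1.11 times on average (0.15 on the log2 scale), and no p is given for a score over chosen members. As shares of the summed level, the large subunit took 64.1% (95% Wilson interval 61.8 to 66.3), 64.3% (63.1 to 65.5), 65.6% (64.4 to 66.8), 67.6% (66.6 to 68.5) and 66.3% (64.6 to 68.0). The intervals cover counting error of the estimated reads only, and those of HCC 1 and HCC 3 overlapped with both healthy ones. Hepatocyte and erythroid markers were also higher in the HCC libraries, and their part in the ratio was not tested.

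The size of that difference depended on which genes were summed and how they were weighed. Without the 5 members of highest mean level, Mrpl33, Mrpl12, Mrpl17, Mrps23 and Mrps34, the log2 ratio of HCC over healthy was 0.036 in place of 0.15. From geometric means, in which each gene weighs alike, it was 0.13, and with subunits assigned by structure it was 0.18. The median log2 fold change was -0.15 over the 49 large-subunit and -0.28 over the 26 small-subunit genes tested, with 30 and 16 of them below 0 (61.2 and 61.5%). Members of the large subunit summed to 1.00 times the healthy level in HCC libraries and members of the small subunit to 0.908 times. Neither differed by more than the spread between the libraries of the healthy group, at 1497 ± 224 CPM and 834 ± 118 CPM.

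**Figure D4:**
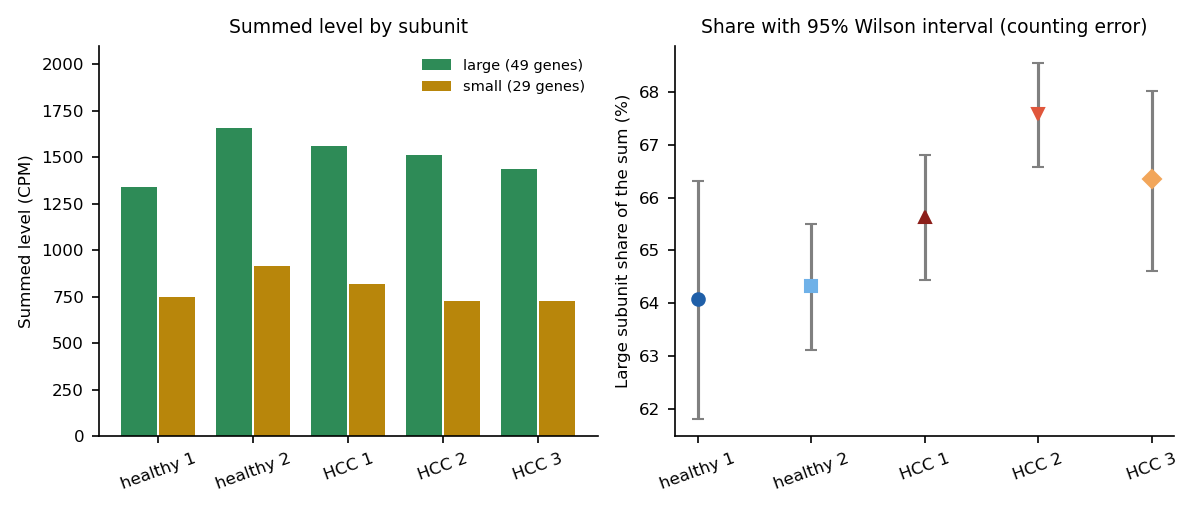
Left, summed level in CPM of the 49 large-subunit (green) and 29 small-subunit genes (ochre) in each library, as bars from 0. Right, the large subunit's share in percent with its 95% Wilson interval, from 64.1% in healthy 1 to 67.6% in HCC 2.

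Symbols do not always give a protein's place. Mrps18a and Mrps30 are part of the large subunit in the mammalian structure, and Mrps36 is now known as a subunit of the 2-oxoglutarate dehydrogenase complex. Mrps30 was at 3.60 and 23.6 CPM against 28.8, 27.4 and 10.6 CPM, and its log2 fold change of 0.83 (SE 0.70) turned to -0.20 when healthy 1 was left out. Mrps36 was at 15.7 and 16.5 CPM against 13.6, 20.4 and 28.7 CPM. The 3 paralogs Mrps18a, Mrps18b and Mrps18c occupy different sites, and Mrps18c is the one that corresponds to the bacterial protein. Mrps18c was at 36.9 and 65.9 CPM against 57.7, 23.9 and 65.8 CPM, Mrps18b at 25.2 and 40.1 CPM against 25.6, 14.0 and 34.5 CPM, and Mrps18a at 22.5 and 11.0 CPM against 16.3, 11.6 and 11.1 CPM. The groups overlapped for each of the paralogs, and HCC 2 was the lowest library for Mrps18b and Mrps18c. Over the 45 tested members with a bacterial counterpart the median log2 fold change was -0.22, and over the 30 without one it was -0.24.

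The 3 members at an unadjusted p under 0.05 had no bacterial counterpart, as was so for 30 of the 75 members tested. Mrps25 (chr6:92169525-92184033), a small-subunit protein, was at 39.6 and 43.9 CPM in healthy mice, against 15.2, 22.7 and 22.8 CPM in HCC mice. The gap between the groups exceeded the spread within each, and the log2 fold change was -1.15 (SE 0.47, unadjusted p = 0.0293, adjusted p = 0.946, limma). It ranged from -1.27 to -0.98 when single libraries were left out. The last 300 bases of Mrps25 are overlapped by Nr2c2 on the opposite strand, and the strand setting of the counting is not given in the sources used here.

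Mrpl46 (chr7:78775236-78783531) was at 53.5 and 28.5 CPM against 18.0, 8.73 and 22.8 CPM (log2 fold change -1.40, SE 0.58, unadjusted p = 0.0309, adjusted p = 0.946, limma). Healthy 1 was the highest library for this gene, in contrast to most members, and without it the log2 fold change was -0.83. Mrpl58 (chr11:115403752-115412674), a peptidyl-tRNA hydrolase built into the large subunit that can release stalled chains, was at 22.5 and 30.2 CPM against 13.6, 4.07 and 15.4 CPM. That corresponds to 19 and 72 estimated reads against 35, 16 and 21. Its log2 fold change was -1.42 (SE 0.63, unadjusted p = 0.0433, adjusted p = 0.946, limma), with every HCC library below both healthy ones. It was -0.89 without HCC 2 and -1.73 without HCC 3.

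In all, the HCC libraries lay below both healthy libraries for 7 of the 75 tested members (9.33%, beside 5.53% of all genes tested) and above both for 4 (5.33%, beside 12.7%). The 7 were Mrps34, Mrps16, Mrpl51, Mrps25, Mrpl46, Mrpl2 and Mrpl58, and the 4 were Mrpl36, Mrpl32, Mrpl44 and Mrpl39. On the deposited scale, without division by the table total, there were 10 below (13.3%, beside 7.63%) and 3 above (4%, beside 10.3%). Mrpl51, a mitochondria-specific protein of the large subunit, shows how small such a separation can be, at 41.8 and 41.7 CPM against 37.5, 34.9 and 36.1 CPM (log2 fold change -0.35, SE 0.43, and -0.20 without healthy 1). Hepatocyte and erythroid markers separated the groups in the same libraries, and their part in these counts was not tested.

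Next in the order of p among members with lower fitted levels came Mrpl37, Mrps7 and Mrpl52. Mrpl37 was at 33.3 and 26.9 CPM in healthy libraries and 39.7, 2.33 and 7.43 CPM in HCC libraries. HCC 1 was thus above both healthy libraries and HCC 2 and 3 far below them, the latter on 9 and 10 estimated reads. Its log2 fold change of -1.60 (SE 0.83) was the lowest of the members and became -2.54 without HCC 1 and -0.82 without HCC 2. Mrps7, a protein of the small subunit's head, was at 21.6 and 28.0 CPM against 21.8, 11.6 and 9.02 CPM.

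Of the 6 members with the smallest p among those with higher fitted levels in HCC libraries, 4 had 4 or fewer estimated reads in healthy 1. Mrpl32 (chr13:14608184-14613165), whose cleavage by the m-AAA protease after import is a step in assembling the ribosome, was at 3.60 and 7.68 CPM in healthy mice, against 11.4, 16.9 and 24.9 CPM in HCC mice. Every HCC library was above both healthy ones, the log2 fold change was 1.30 (SE 0.63, unadjusted p = 0.0596, adjusted p = 0.946, limma), and it was 0.99 without healthy 1. Mrps33 was at 2.25 CPM in healthy 1, from 2 estimated reads, and at 31.8 CPM in healthy 2, beside 38.1, 28.5 and 24.9 CPM in HCC libraries. Its log2 fold change of 1.38 (SE 0.73) was the highest of the members and turned to -0.086 without healthy 1. Mrpl36, a small zinc-binding protein, was at 4.95 and 23.6 CPM against 26.1, 29.7 and 27.6 CPM, and Mrpl44, which has an RNase III fold, at 2.25 and 11.0 CPM against 17.4, 11.6 and 14.9 CPM. Without healthy 1 their log2 fold changes of 1.07 and 1.11 became 0.21 and 0.35.

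Leaving out healthy 2 instead, so that healthy 1 stood alone against the HCC libraries, limma called 443 of 8257 genes (5.37%) and 2 of 73 tested members (2.74%). These 2 were Mrps33 (log2 fold change 2.84, adjusted p = 0.0142) and Mrpl12 (-1.37, adjusted p = 0.0450). The fit assumes that the lone healthy library varies like the HCC libraries. Both genes are ones in which healthy 1 differed from the other 4 libraries, healthy 2 among them.

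Mrpl35, a protein with a bacterial counterpart that was singled out after its values were seen, showed how far members can depart from the groups. It was at 4.95 and 52.1 CPM in the healthy and at 9.80, 40.2 and 9.55 CPM in the HCC mice, on 4, 125, 25, 157 and 13 estimated reads. One healthy and 1 HCC library were high and the other 3 low. Its coefficient of variation was 91.6%, where counting would give 16.0%.

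At the low end, 3 members did not pass the filter of a value of 10 or more in at least 2 libraries. Mrps28 was at 0 and 9.88 CPM against 2.72, 3.49 and 3.18 CPM. Mrps31 was at 8.54 and 0.549 CPM against 0.544, 1.16 and 0 CPM, and Mrps27 at 0 and 4.39 CPM against 0, 1.75 and 1.59 CPM. No member was at 0 in all 5 libraries, and 6 were at 0 in at least 1 of them. In healthy 1, 5 genes were at 0, namely Mrpl27, Mrpl22, Mrps28, Mrps22 and Mrps27, which at its depth allows up to 3.58 CPM each.

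Some rows may hold reads of other genes. The last 300 bases shared more than 20% of their 31-base words with another gene in 13 members. Mrpl53, whose log2 fold change was 0.87 (SE 0.47), shared 100% of them with Gm42688, so its levels (15.7 and 41.7 CPM against 55.5, 68.1 and 40.9 CPM) cannot be assigned to it alone. The fold change was 0.34 on the log2 scale without healthy 1 and 1.40 without healthy 2. Mrpl23 shared 56.1% with other genes, above all with its processed pseudogene Mrpl23-ps1 on chromosome 2 (chr2:74591330-74591909). The pseudogene's row was at 104, 149, 108, 36.1 and 82.8 CPM, and that of Mrpl23 at 36.9, 76.8, 46.3, 50.6 and 33.4 CPM, in healthy 1, healthy 2, HCC 1, HCC 2 and HCC 3. The pseudogene row was thus the higher one in every library but HCC 2. Without the members that share more than 20%, the summed level in HCC over healthy libraries was -0.074 on the log2 scale, beside -0.043 with all members.

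On the genome the members were scattered over 17 chromosomes, with at most 11 on 1 of them. A protein-coding neighbour on the other strand began within 1000 bases upstream of the start in 18 of 78 members (23.1%), beside 1484 of 21884 protein-coding genes (6.78%). Mrps12 began 172 bases from Sars2, which encodes the mitochondrial seryl-tRNA synthetase and was at 0 to 9.44 CPM. Mrpl49 began 59 bases from Fau, a gene for a cytosolic ribosomal protein, and Mrpl32 75 bases from Psma2, a proteasome subunit. At the other end, the last 300 bases were overlapped by a gene on the same strand in 4 members and on the opposite strand in 14, among them Mrpl33 with Gm43809 and Rbks.

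Other parts of the mitochondrial translation system were read from the same fit, with 0 genes called in each list. Of 5 tested ribosomal proteins with other names, 4 were below 0 (median log2 fold change -0.59). Chchd1 was at 232 and 76.3 CPM in healthy mice, against 126, 68.1 and 100.3 CPM in HCC mice, and Aurkaip1 at 165 and 147 against 205, 133 and 161 CPM, both above every Mrps member on average. Dap3, a GTP-binding small-subunit protein, was at 50.4 and 24.7 CPM against 8.71, 48.3 and 37.7 CPM, and its groups overlapped. Gadd45gip1, a large-subunit protein also known as CRIF1, was singled out after its values were seen, as the gene of this list whose groups did not overlap. It was at 50.4 and 37.3 CPM against 24.5, 12.8 and 28.1 CPM (log2 fold change -1.15, SE 0.52, unadjusted p = 0.0451, adjusted p = 0.946, limma). Assembly factors had a median of 0.16, with 10 of 16 tested above 0. They were led by Malsu1, which keeps the subunits apart until the large one is mature, at 27.4 and 52.7 against 107, 38.4 and 45.6 CPM, and by Ngrn, which binds the large ribosomal RNA, at 14.4 and 42.3 against 38.6, 29.7 and 28.1 CPM.

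Translation factors had a median of -0.40, with 7 of 10 tested below 0. Among them the membrane insertase Oxa1l was at 36.0 and 19.2 against 14.1, 12.8 and 28.1 CPM and the elongation factor Tufm at 12.1 and 10.4 against 8.71, 8.73 and 13.8 CPM. The groups overlapped in both. Mitochondrial aminoacyl-tRNA synthetases had a median of 0.29, with 7 of 12 above 0, and their most abundant gene Lars2 was at 15.7 and 49.4 against 86.5, 50.05 and 26.0 CPM. Genes for mitochondrial transcription and RNA handling had a median of 0.22, with 10 of 14 above 0. Lrpprc, which stabilises mitochondrial mRNAs, was at 71.5 and 149 CPM in healthy mice, against 167, 302 and 180 CPM in HCC mice, above both healthy libraries in all 3 (log2 fold change 0.85, SE 0.40, adjusted p = 0.946, limma). Rexo2, an RNA-degrading enzyme of mitochondria, was at 58.4 and 59.8 against 81.6, 50.6 and 66.3 CPM.

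Beside these, 85 tested genes of the cytosolic ribosome had a median log2 fold change of -0.17 with 60 below 0 (70.6%), and 77 of the nuclear-encoded respiratory chain a median of 0.0047 with 38 below 0 (49.4%). The member median of -0.22 was thus nearer to that of the cytosolic ribosome, whose members summed to 169432 to 192130 CPM. None of these differences between lists was tested. For the proteins encoded by mitochondrial DNA, 0 rows were matched by symbol, so they were not analysed here.

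**Figure D5:**
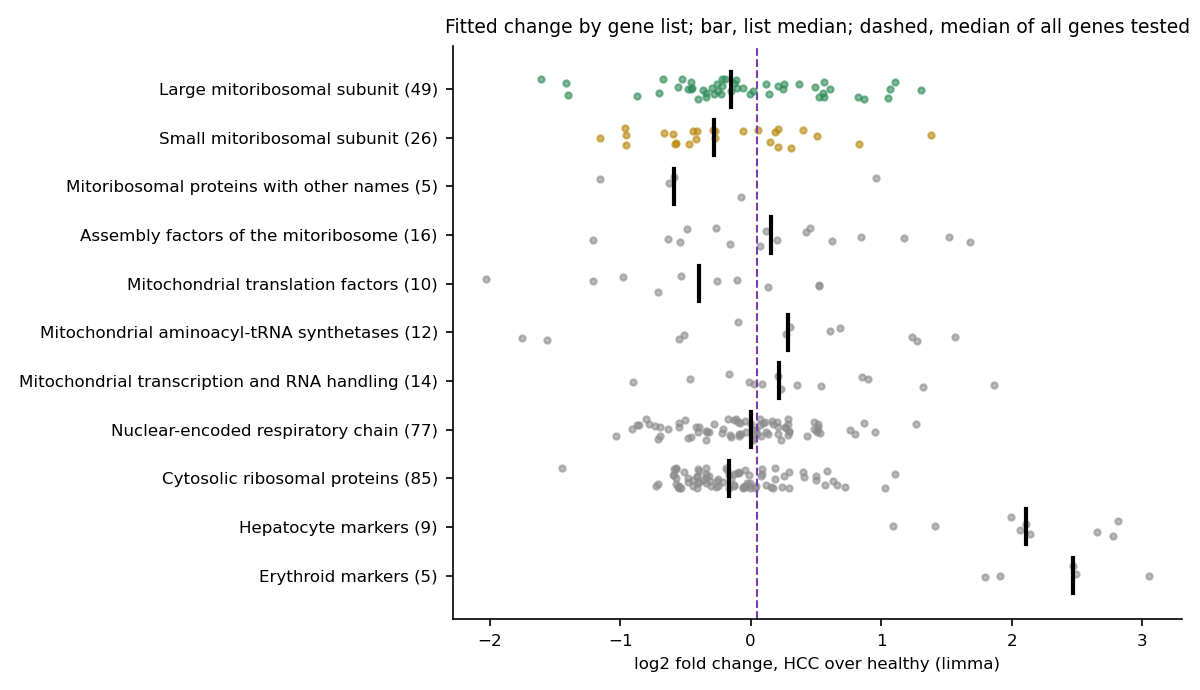
Fitted log2 fold change of HCC over healthy libraries (horizontal axis, limma) for each tested gene of the mitoribosomal subunits and the related and marker lists, with the number tested in parentheses. Black bars are list medians, -0.15 for the large and -0.28 for the small subunit, and the dashed line is the median of 0.05 over all genes tested. Hepatocyte and erythroid markers lie at 1.09 or above.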

How the data were processed

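The 5 tables hold 1 whole number for each of 55364 Ensembl mouse gene IDs. The deposited signal per gene is read counts that appear to have been divided by a factor for each library and rounded, as the spacing of the values and their median-of-ratios factors of 0.997 to 1.01 show; no label states this step. The genome build was mm10 and the aligners named were HISAT2 and Bowtie2, beside bcl2fastq and the packages limma, edgeR, DESeq and DESeq2, without roles or versions, per the submitters' processing notes. The counting program and its strand setting are not given in the sources used here. Table totals were 1718452 to 2224356.

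Symbols and positions came from GENCODE M21 (55104 IDs matched). Levels are CPM, the deposited value per 1000000 of the table's total. The value of 1 read was estimated from the values up to 400 with a Poisson model, tested on simulated data. A test for counts had been planned. Because the values are not counts, limma 3.58.1 (R 4.3.3, with an intensity trend) was used on log2(deposited value + 3), without further scaling. It covered genes with a value of 10 or more in at least 2 libraries, with all 5 libraries and no covariate. Benjamini-Hochberg adjustment ran over all genes tested, with a threshold of 0.05. A fold change on this scale understates that of low genes.

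The members, lists and rules were chosen with earlier results of these data known. Named with values were the 8 Mrpl and 6 Mrps genes of highest mean level, the 6 with the smallest p in each direction, the 3 most abundant in each direction whose groups did not overlap, 5 genes whose place differs from their symbol or that are paralogs, and up to 2 most abundant genes of each related list. Mrps12, Mrpl35, Dap3 and Gadd45gip1 fall outside this rule. The roles, the bacterial counterparts and the 7 promoter patterns were compiled after the tables had been seen. Alternatives covered scaling, filters, pseudocounts of 1 and 10, library weights and limma-voom on estimated reads. They also covered a replicate block, HCC 2 and HCC 3 merged (by their mean in the fits), and leaving out each library.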

Additional observations from a re-analysis of the deposited data

How the results depend on the processing

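No member passed the threshold in the test as reported or under any alternative that kept both healthy libraries; single libraries left out gave 0 to 2 members. The median log2 fold change of the members, -0.22, stayed below 0 throughout. It was -0.073 with library totals only, -0.10 with HCC 2 and HCC 3 averaged and -0.25 to -0.077 when single libraries were left out. The summed level in HCC over healthy libraries, -0.043 on the log2 scale, was -0.19 on the deposited scale, chosen after seeing the data. It was -0.14 with TMM-scaled totals and -0.10 with totals of protein-coding rows. With those rows less globin, hepatocyte-marker and cytosolic ribosomal protein genes it was -0.14. It was -0.025 with HCC 2 and HCC 3 merged and -0.19 to 0.11 when single libraries were left out. The log2 ratio of large to small subunit, 0.15, was 0.036 without the 5 members of highest mean level. It was 0.13 from geometric means, 0.18 with subunits by structure and 0.11 to 0.18 when single libraries were left out. The cause of these shifts was not tested.

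With the replicate number as a block, limma called 2 of 8647 genes and 0 members, and the member median was -0.12. HCC 3, alone in its block, adds nothing to that fit. By the labels, the libraries of a block share only a number. Deviations of same-numbered libraries correlated at 0.0015 and 0.13, and those of healthy 1 and HCC 3 at 0.13. With 2 healthy libraries the deviations of 1 mirror those of the other, so these values cannot show whether libraries were paired.

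Among the genes named with values, Mrpl16 (0.020) was -0.017 with the replicate block and -0.014 with HCC 2 and HCC 3 averaged. It was -0.063 with protein-coding rows only and -0.00024 with library weights. Mrps36 (0.15) was -0.12 with the replicate block. Leaving out single libraries turned the direction of 10 of the 29 genes. The ranges of their log2 fold changes were -1.37 to 0.025 for Mrpl12, -0.31 to 0.35 for Mrpl16, -0.43 to 0.17 for Mrpl30, -0.0030 to 0.38 for Mrps21, -0.56 to 0.20 for Mrps18c, -1.45 to 0.51 for Mrps24, -0.086 to 2.84 for Mrps33, -1.01 to 0.19 for Mrps18a, -0.20 to 1.87 for Mrps30 and -0.12 to 0.39 for Mrps36. The tests meant for counts were not run, since the values are not counts. These were the edgeR quasi-likelihood F test, which limma replaced, and a Wald test as an alternative. Depth limits the low genes most: 1 read was 1.19 CPM in healthy 1 and 0.256 CPM in HCC 2, where the reads behind a value are known only to within rounding.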
